A study of Mus musculus with 66 samples.

Results

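Zfp genes, the mouse genes named for zinc finger proteins and numbered, were followed in the testis from birth to adulthood. A gene counted as a member when the annotation of its array probe sets gave a symbol that starts with Zfp and a number. Of 278 such genes with a probe set that names 1 gene, 243 passed a signal filter and were analysed, out of 13472 genes that passed it in all. The other 35 stayed too dim. Their highest signals on any array ran from 6.4 to 63.9, with a median of 35.

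Zfp is a naming series and not a single family. Most of its members encode C2H2 proteins, in which fingers built around a zinc ion read DNA, and many of these also carry a KRAB domain that recruits the corepressor TRIM28 and silences chromatin. A few members are of another kind: Zfp36, Zfp36l1 and Zfp36l2 have CCCH fingers, bind AU-rich stretches of messenger RNA and promote its decay. In the testis, zinc finger proteins are known among spermatogonial regulators and among transcripts that appear during meiosis and in spermatids.

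Total RNA came from testes of BL/6-129 mice aged 0, 3, 6, 8, 10, 14, 18, 20, 30, 35 or 56 days. Every age had 2 numbered samples, and the labels name no treatment or mutation. Each sample was run on array types A, B and C, which gave 66 arrays. Whether samples of 1 age came from different mice or from pools is left unsaid in the labels, so the p-values measure only the spread between these samples. Days 0 to 10 are called early here (10 samples), days 14 to 20 middle (6 samples) and days 30 to 56 late (6 samples). As background, these groups correspond roughly to testes before or at the onset of meiosis, with meiosis under way, and with spermatids present.

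Most measured spermatocyte and spermatid markers rose in that order. Of 11 spermatid markers, 10 rose from early to late, and their summed signal was 394.8 to 1664 early, 344.2 to 482.8 in the middle and 39444 to 69620 late. One of them, Prm1, read up to 759.0 early and was called lower from early to middle, at -1.65. Of 8 measured spermatocyte markers, 6 rose. The sum was 992.5 to 1514 early, 5770 to 21137 in the middle and 18040 to 23726 late. Of 10 Sertoli cell markers, 5 fell, and the sum went from 6528 to 8255 down to 2750 to 3521. All 6 peritubular and matrix markers fell, from a sum of 6841 to 14597 early to 799 to 2012 late. Of 9 measured spermatogonial markers, 4 fell and 1 rose. No marker among 4 measured for macrophages or 4 for skeletal muscle was called by limma from early to late, with an unadjusted p under 0.05 for 2 in each list, while 1 of 3 erythroid markers fell and the 1 measured adipocyte marker rose. Of 5 measured Leydig cell markers, 1 rose and 2 fell, and none of 4 epididymis markers was measured. Measured here means that a probe set naming 1 gene passed the signal filter. A marker not measured may lack such a probe set or may have been too dim. A signal of 50 was reached by 46.0% to 63.1% of an array's probe sets. The samples of day 0 matched each other least, with correlations of their log2 signals of 0.889, 0.804 and 0.780 on types A, B and C against medians over days of 0.954, 0.891 and 0.892. The day 20 samples followed, at 0.896, 0.824 and 0.875.

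The stretches in front of the transcription starts of 6 Zfp genes are shown because these genes had the largest early to late changes in each direction among those with 1 listed start. They come from RefSeq on build GRCm38.p6, cover the 250 bases before the start and run 5′ to 3′ along the gene's strand. Capitals mark matches, on either strand, to 5 motifs: the cAMP response element TGACGTCA, the palindromic NRF1 site, the ETS site CCGGAAGT, the CCAAT box CCAAT and the TATA box TATAAA. Zfp799, Zfp266 and Zfp36l1 fell with age, and Zfp110, Zfp956 and Zfp949 rose.
Zfp799 (chr17:32830262-32830511, minus strand): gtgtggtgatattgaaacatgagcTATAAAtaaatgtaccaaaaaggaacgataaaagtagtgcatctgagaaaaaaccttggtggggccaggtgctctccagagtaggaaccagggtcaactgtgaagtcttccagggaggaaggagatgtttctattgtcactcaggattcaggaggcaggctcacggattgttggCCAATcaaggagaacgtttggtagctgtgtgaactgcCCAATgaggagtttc
Zfp266 (chr9:20521420-20521669, minus strand): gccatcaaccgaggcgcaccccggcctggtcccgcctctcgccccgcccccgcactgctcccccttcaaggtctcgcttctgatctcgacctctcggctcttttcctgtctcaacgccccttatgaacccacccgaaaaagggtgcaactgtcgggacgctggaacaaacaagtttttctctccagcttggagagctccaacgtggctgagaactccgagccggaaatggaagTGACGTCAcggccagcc
Zfp36l1 (chr12:80113014-80113263, minus strand): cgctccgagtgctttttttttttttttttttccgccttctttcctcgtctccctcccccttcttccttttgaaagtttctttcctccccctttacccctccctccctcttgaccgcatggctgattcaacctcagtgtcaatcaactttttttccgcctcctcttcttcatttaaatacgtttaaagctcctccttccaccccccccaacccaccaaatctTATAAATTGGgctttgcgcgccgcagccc
Zfp110 (chr7:12834511-12834760, plus strand): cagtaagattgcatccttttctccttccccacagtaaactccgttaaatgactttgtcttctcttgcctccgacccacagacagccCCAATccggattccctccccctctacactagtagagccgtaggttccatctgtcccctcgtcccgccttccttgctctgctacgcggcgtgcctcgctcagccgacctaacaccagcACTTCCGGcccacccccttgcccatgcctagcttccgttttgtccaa
Zfp956 (chr6:47953140-47953389, plus strand): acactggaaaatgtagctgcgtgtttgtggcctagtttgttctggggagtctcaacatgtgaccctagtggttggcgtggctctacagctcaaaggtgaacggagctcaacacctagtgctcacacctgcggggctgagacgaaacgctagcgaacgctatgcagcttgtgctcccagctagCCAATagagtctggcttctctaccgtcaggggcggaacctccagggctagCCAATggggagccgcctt
Zfp949 (chr9:88547770-88548019, plus strand): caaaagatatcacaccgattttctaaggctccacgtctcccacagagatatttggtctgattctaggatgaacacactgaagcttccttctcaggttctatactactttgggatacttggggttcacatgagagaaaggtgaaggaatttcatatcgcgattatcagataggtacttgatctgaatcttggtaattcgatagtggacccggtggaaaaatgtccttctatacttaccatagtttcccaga
Zfp799 and Zfp956 each held a pair of CCAAT boxes, at 52 and 15 bases before the start in Zfp799 and at 68 and 18 bases in Zfp956. In Zfp36l1 a CCAAT match on the reverse strand shared its first base with the end of a TATA match that began 29 bases before the start. Zfp266 held the full cAMP response element 17 bases before its start. Zfp110 held an ETS match and a CCAAT box, and Zfp949 matched none of the 5.

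A listed start was found for 199 of the 243 Zfp genes, with 242 stretches in all. The CCAAT box, the site of the factor NF-Y, stood in 43.8% of them, beside 34.8% for all genes measured and 33.8% for all 32851 stretches in the table. Among the Zfp genes that fell from early to late it stood in 30 of 51 stretches (58.8%), and among those that rose in 10 of 24 (41.7%). The core letters of the cAMP response element, TGACG, which also lie within the full element, were in 27.3% of the Zfp stretches, beside 24.6% for all genes measured. The full element was in 2.89% of the Zfp stretches beside 2.27%, the NRF1 site in 2.89% beside 1.44%, the ETS site in 7.02% beside 5.02%, and the TATA box in 7.02% beside 7.31%. Genes with several starts count several times in these shares, and the shares were not tested.

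Most Zfp genes had a lower signal late than early. The median early to late change was -0.48 on the log2(signal + 16) scale, beside -0.23 for the 13229 other genes. The change was below 0 for 173 Zfp genes (71.2%) and for 60.7% of the others. A gene was called when limma gave an adjusted p under 0.05 and the change was at least 2-fold on that scale, which understates the change of dim genes. By this rule 20 Zfp genes rose from early to late, where 14.9% of all genes did, and 58 fell, where 20.6% of all genes did. As shares of the 243, that is 8.23% and 23.9%. The share of rises lay below that of all genes under every alternative run. The share of falls was near the background, and which was larger turned with the setting. In whole testis, fewer cells of a type and less RNA per cell cannot be told apart.

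The size of this split depended on how the arrays were scaled. When arrays were instead brought to a common median signal, the median change of all genes moved from -0.24 to 0.00 and that of the Zfp genes from -0.48 to -0.23, so the Zfp median stayed below that of all genes. Under that scaling 28 Zfp genes were called higher and 34 lower, beside 2421 and 1996 of all genes. All 20 rises and 34 of the 58 falls were called under both scalings, and no gene was called in opposite directions. With quantile normalization the counts were 22 higher and 44 lower, and the Zfp median was -0.32. The share of falls was then 18.2% for Zfp genes and 18.3% for all genes, under the common median 14% and 14.8%, and with a pseudocount of 64 in place of 16, 10.7% and 12.3%. The small excess of Zfp falls was thus not seen under these 3 settings.

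**Figure D1:**
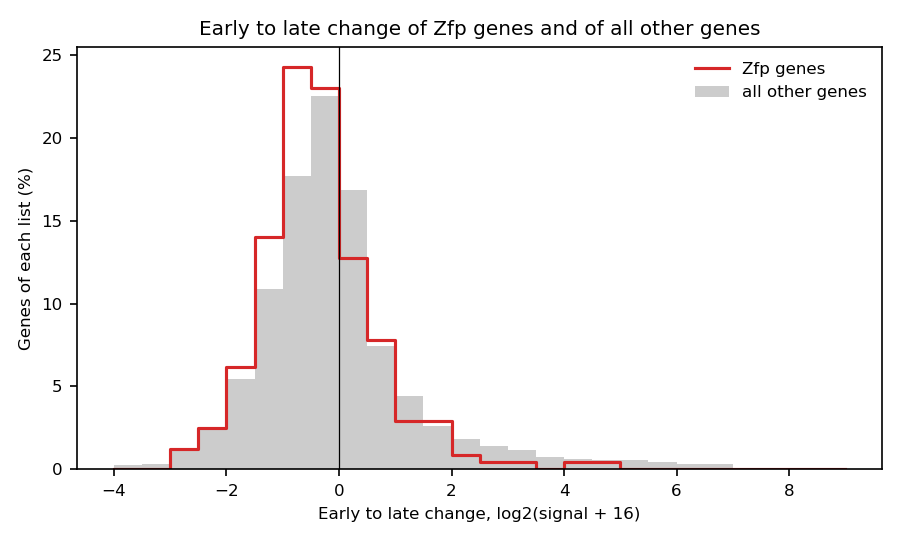
Share of genes (vertical axis, percent of each list) by early to late change in log2(signal + 16) (horizontal axis). The red outline is the 243 Zfp genes, centred at a median of -0.48, and the grey bars are the 13229 other genes, centred at -0.23 and with a longer tail of large rises.

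Over the 11 days, a moderated F-test called 123 Zfp genes with at least a 2-fold range between day means, where 53.9% of all genes were called. The highest day mean fell on an early day for 135 Zfp genes (55.6%, beside 50.3% of the others) and on a late day for 51 (21.0%, beside 25%). The lowest day mean was late for 122 (50.2%, beside 46.5%). Measured as the deviation of each day from a gene's own mean, the Zfp median was highest at day 6, at 0.23, and lowest at day 35, at -0.33. For the other genes these medians were 0.10 and -0.16. Day 20 was the lowest day for 33 Zfp genes (13.6%, beside 7.76% of the others). The samples of that day differed by at least 2-fold in 67 Zfp genes (27.6%, beside 17.3%), with sample 2 the lower at the median, by 0.16. At day 0 the corresponding figures were 46 Zfp genes and 18.9%, beside 14.2%, and at days 14 and 30 only 9 Zfp genes each differed that much. How far these uneven samples set the dip at day 20 was not tested.

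**Figure D2:**
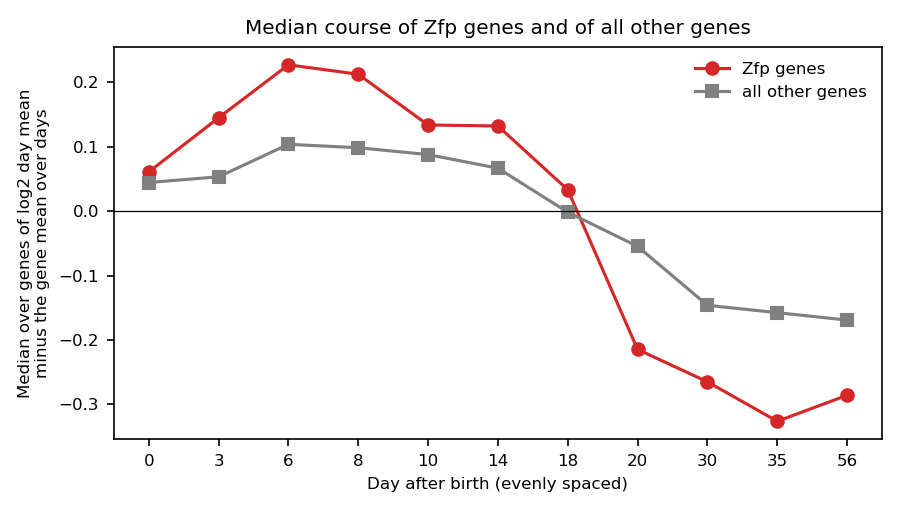
Median over genes (vertical axis) of the log2 day mean minus the gene's own mean over days, for each of the 11 days (horizontal axis, evenly spaced), with Zfp genes as red circles and other genes as grey squares. The Zfp median went from 0.23 at day 6 to -0.33 at day 35, a wider swing than the 0.10 to -0.16 of the other genes on those days.

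Courses were sorted into classes by the calls between the stages. A rise is an early to late gain and a fall an early to late loss. By class, 20 Zfp genes rose (14.8% of all genes) and 58 fell (20.6% of all genes). No Zfp gene peaked in the middle days against both other stages (0.186% of all genes), and none had a trough there (0.163% of all genes). Both classes were thus rare in the whole table too. The limma comparisons behind these counts of 0 gave an unadjusted p under 0.05 for 107 Zfp genes from early to middle and for 121 from middle to late. The trough count became 1, Zfp618, without sample 1 of day 56, and the peak count became 1, Zfp346, when narrower stages were compared. A further 5 were called in one step only (2.26% of all genes), and 160 belonged to no class (62% of all genes). The count of step-only genes ranged from 3 to 8 when single samples were left out. It was 3 without sample 2 of day 0 or of day 35, and 8 without sample 1 of day 20, sample 1 of day 30 or sample 2 of day 56.

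**Figure D3:**
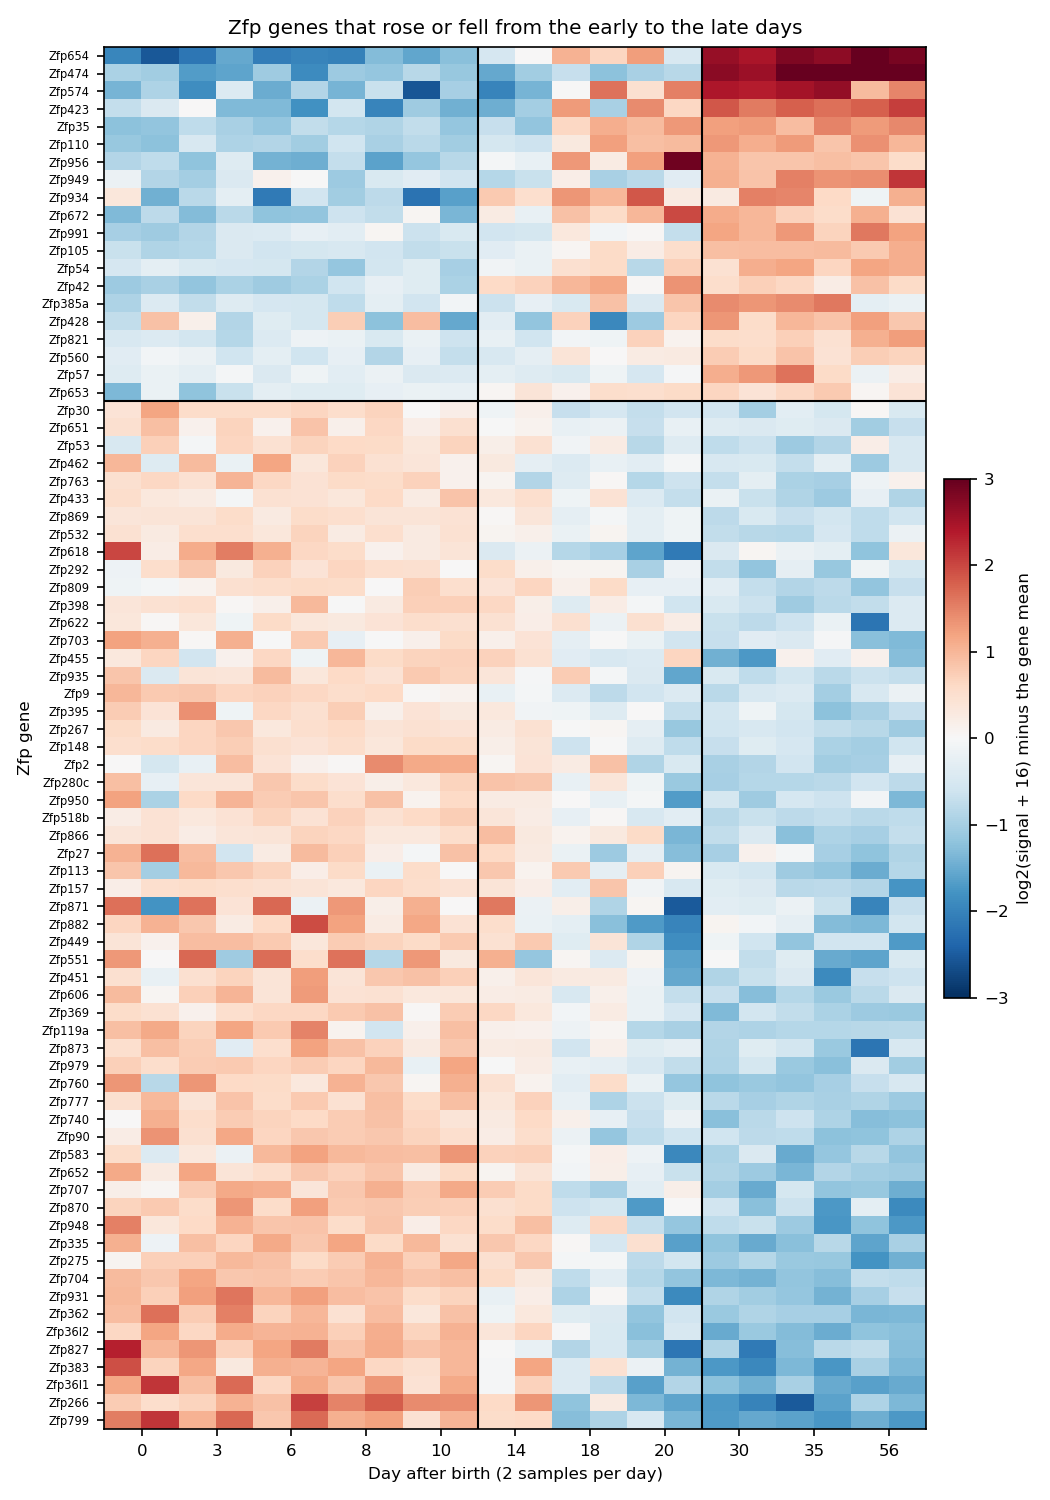
Each row is 1 of the 20 Zfp genes that rose or the 58 that fell, each column 1 sample ordered by day after birth (2 samples per day). Colour gives log2(signal + 16) minus the gene's mean, capped at 3 either way, and black lines separate the stages and the directions. Some rising genes turned red within the middle days and others from day 30, and sample 2 of day 20 is darker blue than its partner in many falling genes.

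The 20 rises ranged from 1.00 to 4.58 on the log2 scale, with a median of 1.71, and 6 were at least 4-fold. In 16 of them no late sample overlapped an early one (80% of the called rises, beside 90.6% over all genes). Over the whole table, 13.5% of all genes were called higher without overlap. In 5 of the 20, Zfp42, Zfp474, Zfp54, Zfp57 and Zfp949, all early samples lay under the filter level of 50, so they passed the filter only through later samples. Of the 20, 5 stood clear of all early samples from day 14 onward, 6 from day 18, 1 from day 20 and 4 from day 30. Early to middle, 10 Zfp genes were higher (7.42% of all genes) and 15 lower (6.18% of all genes). Middle to late, 8 were higher (9.06% of all genes) and 15 lower (7.47% of all genes). With arrays scaled to their median these splits were 11 to 10 and 10 to 9. Leaving out days 0 and 20, a choice made after seeing the data, gave 5 higher and 8 lower for the first step, and 11 higher and 34 lower for the second.

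Zfp654 had the largest rise of the Zfp genes. Its signal had a lowest value of 29.2, a median of 51.05 and a highest of 95.0 over the early samples, then 169.9, 322.9 and 615.6 in the middle and 1426, 1758 and 2139 late. No sample of one stage overlapped another stage. The early to late change was 4.58 ± 0.21 (SE, adjusted p = 2.09e-12), with 2.17 ± 0.21 in the first step and 2.41 ± 0.24 in the second. At day 20 its samples read 615.6 and 171.6. Another probe set for the gene gave 0.73.

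Zfp474 rose in the second step. Its signal was 12.2, 32.35 and 42.5 (lowest, median, highest) early and 20.3, 36.1 and 48.5 in the middle, so those stages overlapped fully. Late, it was 607.1, 908.0 and 1356, clear of every younger sample from day 30 onward. The middle to late change was 4.16 ± 0.20 (SE, adjusted p = 8.69e-12). Zfp949 had the same shape at a lower level, with 5.9, 18.3 and 35.5 early, 7.8, 12.1 and 37.8 in the middle and 69.2, 104.6 and 189.5 late. Its early to late change was 1.87 ± 0.23 (SE, adjusted p = 1.24e-06). The name of the Zfp474 probe set carries a suffix. In the array maker's general naming, which the files do not spell out, such suffixes mark sets that may share probes with related transcripts or miss a design rule. Of the names chosen here, 53 of 243 (21.8%, beside 17.7% of all genes) have one.

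Zfp574 and Zfp423 rose in both steps. Zfp423 encodes a protein with many C2H2 fingers that binds EBF and SMAD factors. Zfp574 read 10.1, 52.1 and 99.7 early, 23.0, 168.1 and 460.1 in the middle and 279.9, 789.3 and 937.0 late. Its late samples lay above every early sample, and the change was 3.31 ± 0.29 (SE, adjusted p = 2e-08). At day 56 its samples read 279.9 and 406.2, below the 767.0 to 937.0 of days 30 and 35. Zfp423 read 12.9, 34.15 and 99.2 early, 25.5, 101.7 and 291.4 in the middle and 322.0, 378.9 and 464.7 late. It changed by 2.85 ± 0.31 (SE, adjusted p = 2.72e-07), and its late samples overlapped no earlier sample. Another Zfp423 probe set, on type B, went the other way, at -0.65.

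Zfp35, Zfp110 and Zfp956 had most of their rise in the middle days. Zfp35, a C2H2 gene known for its expression in meiotic germ cells, read 61.3, 79.15 and 94.3 early and 63.9, 300.5 and 432.4 in the middle. Late it read 329.4, 426.5 and 492.7, above every early sample. It stood clear from day 18, with an early to late change of 2.24 ± 0.13 (SE, adjusted p = 6.98e-11). Zfp110 followed the same course, from 50.2, 64.35 and 95.9 early to 261.5, 337.0 and 385.9 late, and changed by 2.06 ± 0.14 (SE, adjusted p = 7.19e-10). Zfp956 read 140.5, 219.7 and 350.0 early, 390.8, 818.4 and 3585 in the middle and 675.9, 827.2 and 969.5 late. Middle and late samples all lay above the early ones. The early to middle change was 1.94 ± 0.23, and the middle to late value was -0.07 ± 0.26 (SE, adjusted p = 0.849). The value of 3585 is sample 2 of day 20, whose partner read 1091.

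Zfp42 encodes REX1, a factor best known as a marker of pluripotent stem cells. It read 2.6, 5.7 and 19.1 early, 26.8, 59.5 and 91.1 in the middle and 32.9, 47.8 and 60.9 late. No early sample reached any later one, although all early signals were under the level of 50 used as the filter. The early to middle change was 1.64 ± 0.18 (SE, adjusted p = 1.14e-06). With a pseudocount of 64 in place of 16 it was 0.77, under 2-fold. Zfp57 encodes a KRAB protein that keeps methylation at imprinted genes. It read 7.5, 9.75 and 14.8 early, 6.4, 9.3 and 15.1 in the middle and 12.3, 41.95 and 82.9 late. Its early to late change was 1.06 ± 0.17 (SE, adjusted p = 2.56e-05), and late and early samples overlapped. With no early or middle sample above 15.1, it passed the filter only through late samples. The call was lost without sample 1 of day 35 (0.88) and without sample 2 of day 56 (0.99). It was also lost with narrower stages (0.81) and with a pseudocount of 64 (0.50). At day 56 its samples were down to 12.3 and 21.3.

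The other rises were smaller or more uneven. Zfp105 rose evenly, from 132.3, 165.6 and 190.7 early through 205.6, 290.6 and 399.5 to 464.8, 514.1 and 578.0 late, with no overlap between stages. Zfp385a rose by 1.40 ± 0.20, with 643.0 to 769.1 at days 30 and 35 but 199.3 and 213.3 at day 56, back within reach of its early samples. Zfp934 rose by 1.85 ± 0.33 and Zfp672 by 1.73 ± 0.20, both mainly in the first step. Zfp991 rose by 1.69 ± 0.14, mainly in the second. Zfp54, Zfp428, Zfp821, Zfp560 and Zfp653 made up the rest. Of the 20 rising genes, 4 had another usable probe set, and in 2 of them, Zfp423 and Zfp821, it went down.

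**Figure D4:**
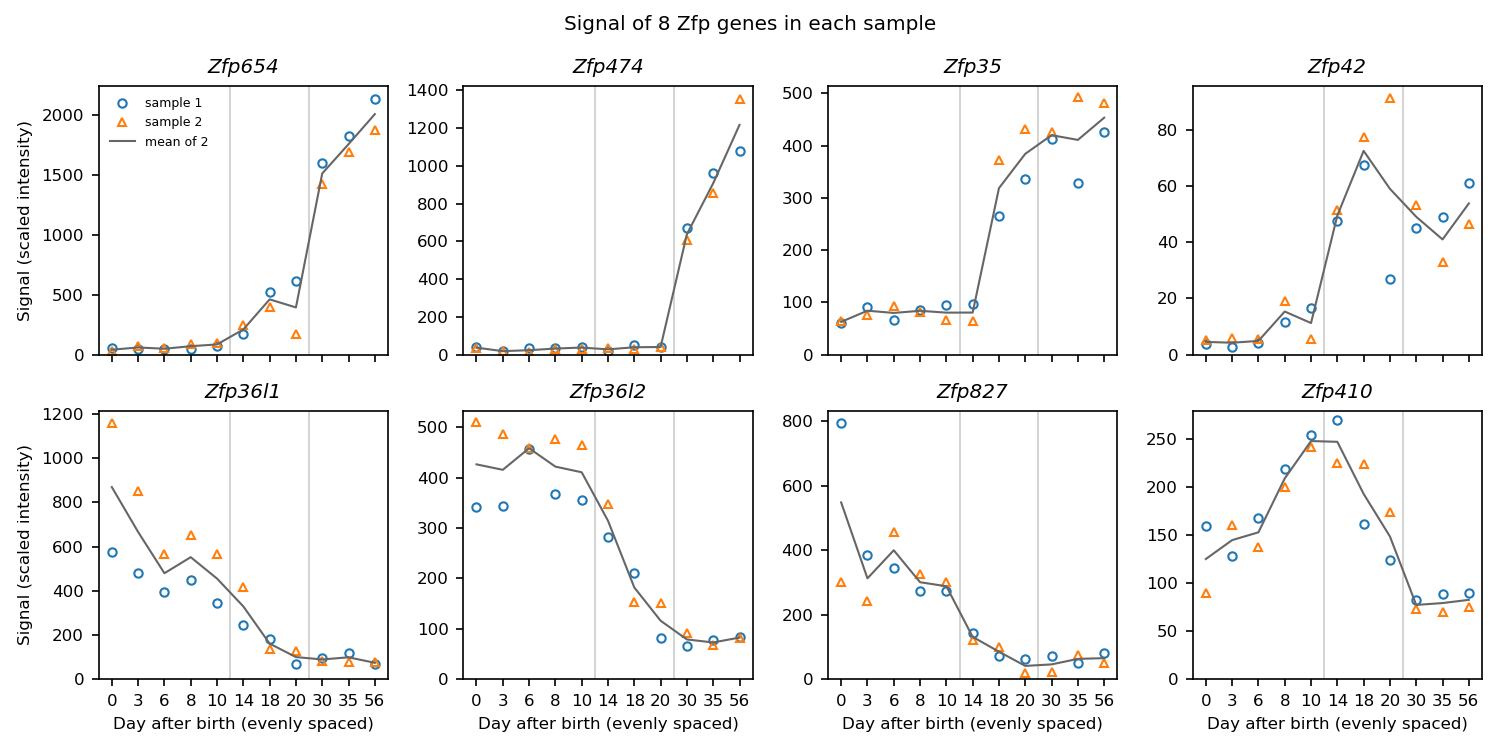
Signal (vertical axes, scaled intensity, starting at 0) of 8 Zfp genes over the 11 days after birth (horizontal axes, evenly spaced). Blue circles are sample 1, orange triangles sample 2, the grey line their mean, and vertical lines separate the stages. Zfp654 and Zfp474 climbed steeply from day 30, Zfp35 from day 18 and Zfp42 from day 14, while Zfp36l1, Zfp36l2 and Zfp827 had lost most of their signal by day 20. Zfp410 was highest at day 10 and dropped by day 30.

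The 58 falls ranged from -2.90 to -1.01, with a median of -1.35. In 9 the loss was at least 4-fold, and in 34 its log2 size was under 1.5. The loss was spread over both steps, with a median of -0.75 in the first and -0.71 in the second, and 36 of the 58 passed the test in neither step alone. Early and late samples did not overlap in 43 (74.1% of the called falls, beside 82.2% over all genes), and 16.9% of all genes were called lower without overlap. Late samples all lay under 50 in 14, so these genes passed the filter only through early or middle samples.

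The CCCH genes divided. Zfp36l1 read 343.5, 565.6 and 1161 early, 69.8, 160.6 and 414.9 in the middle and 69.9, 79.4 and 119.5 late. From day 18 onward no sample reached an early one, and the change was -2.52 ± 0.20 (SE, adjusted p = 4.31e-09). Zfp36l2 read 342.0, 458.7 and 511.3 early, 81.0, 182.0 and 346.9 in the middle and 65.4, 79.6 and 92.1 late. Late and early samples were separate, and the change was -2.23 ± 0.15 (SE, adjusted p = 3.3e-10). Another Zfp36l2 probe set, one with a suffix, gave 0.18. Zfp36 itself was dim, with 9.3, 45.95 and 67.7 early and 18.7, 23.85 and 87.1 late. Its change of -0.13 ± 0.25 (SE, adjusted p = 0.662) did not pass the test.

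The largest fall was that of Zfp799. It read 66.2, 115.2 and 247.5 early, 7.0, 20.9 and 74.7 in the middle and 1.9, 2.9 and 5.8 late. Its late samples lay below all others, and the change was -2.90 ± 0.22 (SE, adjusted p = 1.97e-09). All late samples were under 50, so Zfp799 passed the filter only through early and middle samples. Its second step, -1.14, lost its call without sample 1 of day 20, at -0.996. That step was also not called with narrower stages, at -0.62, or with a pseudocount of 64, at -0.48. Zfp266 fell from 370.5, 617.4 and 1105 early to 31.2, 69.35 and 125.5 late, again with no overlap, with a change of -2.89 ± 0.23 (SE, adjusted p = 4.23e-09). Zfp383 fell from 264.9, 447.6 and 863.6 early to 44.5, 64.15 and 101.8 late, with a change of -2.45 ± 0.26 (SE, adjusted p = 1.51e-07). The Zfp266 and Zfp383 probe sets carry suffixes too, and whether related transcripts add to their signal was not tested.

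Zfp827, Zfp362 and Zfp931 had dropped below all early samples by day 14. Zfp827 read 241.2, 314.6 and 794.1 early, 19.8, 85.0 and 141.4 in the middle and 21.0, 60.2 and 79.5 late. Middle and late samples overlapped each other and no early sample. The early to middle change was -1.99 ± 0.25 (SE, adjusted p = 4.03e-06), and another probe set gave -1.90 from early to late. Zfp362 read 244.0, 367.4 and 626.5 early, 74.3, 140.7 and 240.4 in the middle and 63.9, 83.0 and 95.0 late, with a change of -2.03 ± 0.16 (SE, adjusted p = 3.07e-09). Its first step, -1.31, was -0.97 and under 2-fold without days 0 and 20. Another Zfp362 probe set gave only -0.61 from early to late. Zfp931 fell from 206.1, 275.1 and 444.2 early to 40.1, 58.15 and 76.8 late, with a change of -2.02 ± 0.18 (SE, adjusted p = 2.07e-08). Zfp618 had its lowest signals in the middle days. It read 71.1, 105.2 and 303.7 early, 2.3, 26.15 and 54.7 in the middle and 18.5, 52.05 and 86.3 late. Its first step was -1.82 ± 0.27 (SE, adjusted p = 3.43e-05), and its second, 0.75, was not called.

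Further falls were called between the middle and late days. Zfp113 read 58.1, 205.2 and 280.3 early, 109.6, 188.4 and 247.8 in the middle and 37.4, 61.35 and 94.0 late. The late samples lay below every middle sample, and the middle to late change was -1.31 ± 0.29 (SE, adjusted p = 0.00138). With a pseudocount of 64 that change was -0.94, under 2-fold. Zfp275, on the X chromosome, read 173.1, 280.9 and 384.6 early, 86.8, 153.9 and 298.1 in the middle and 35.7, 65.65 and 81.7 late. Its first step was -0.79 and its second -1.21, and its early to late change was -2.00 ± 0.12 (SE, adjusted p = 1.86e-10). With a pseudocount of 64 the second step was -0.86, under 2-fold. Of 4 X-linked Zfp genes, Zfp275, Zfp280c and Zfp449 fell and Zfp185 did not pass, while 47.7% of the other X-linked genes fell. Zfp410, which activates the chromatin remodeller gene Chd4, had its highest day mean at day 10 and read 123.7, 199.2 and 270.1 in the middle against 69.7, 78.6 and 90.1 late. These stages did not overlap, and the change was -1.12 ± 0.16 (SE, adjusted p = 2.09e-05). It was -0.999, just under 2-fold, with arrays scaled to the median, and -0.98 with quantile normalization. With narrower stages it was -0.93, and with a pseudocount of 64 it was -0.83. Zfp280b and Zfp518a, like Zfp410, were called only in that step, at -1.05 and -1.01. Zfp346 was called only in the first step, at 1.00, and Zfp811 there too, at -1.05.

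Members with a known role were followed whether or not they changed. Zfp148, a factor of GC-rich promoters, read 185.0, 214.4 and 248.4 early and 61.9, 85.05 and 106.6 late. Those stages did not overlap, and the change was -1.23 ± 0.14 (SE, adjusted p = 3.35e-07), or -0.98 with arrays scaled to the median. With a pseudocount of 64 it was -0.92. All 6 of its probe sets went down. Zfp335, a subunit of a histone methyltransferase complex, fell from 91.0, 200 and 256.1 early to 23.9, 35.25 and 51.1 late, without overlap, with a change of -1.98 ± 0.27 (SE, adjusted p = 3.04e-06). Zfp809, a KRAB protein that silences retroviruses, changed by -1.09 ± 0.13 (SE, adjusted p = 8.32e-07) on a probe set with a suffix. It gave -0.77 with arrays scaled to the median and -0.02 when sets with a suffix were left out. Zfp207, a kinetochore protein, read 263.4, 412.7 and 498.8 early and 167.2, 194.0 and 235.5 late. Those stages did not overlap, but the change of -0.95 ± 0.14 (SE, adjusted p = 9.88e-06) was under 2-fold. It passed, at -1.03, without sample 2 of day 0.

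Several regulators known from other tissues gave no early to late call. Zfp568, a KRAB repressor of a placental Igf2 transcript, gave -0.68, and Zfp521, a relative of Zfp423, gave -0.53. Zfp281 gave -0.63, Zfp326 -0.53, Zfp106 -0.32, Zfp318 0.38 and Zfp219 0.12. Zfp217 gave 0.03 ± 0.18 (SE, adjusted p = 0.882) on its brightest probe set, which has a suffix. Without such sets it was represented by another and gave 2.41 ± 0.18 (SE, adjusted p = 1.45e-09), so its course depends on the probe set. Zfp37 and Zfp59, known from male germ cells, did not pass the filter, with highest signals of 41.4 and 23.6. Zfp29, Zfp39 and Zfp143 were not analysed here. The brightest Zfp gene on average, Zfp41, gave 0.01 and belonged to no class.

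From day 0 to days 8 and 10, 3 were higher (2.7% of all genes) and 2 lower (2.3% of all genes), with an unadjusted p under 0.05 for 38. Zfp518a read 152.3 and 99.5 at day 0 against 363.5 to 507.4 at days 8 and 10, with a change of 1.66 ± 0.38 (SE, adjusted p = 0.0121). Zfp217 gave 1.30 ± 0.30 and Zfp597 1.16 ± 0.26. Zfp575 gave -1.28 ± 0.35 and Zfp703 -1.02 ± 0.27. All 5 were separate between the ages in their samples. All 5 also lost their call when a sample of day 0 was left out: without sample 2, Zfp518a, Zfp217 and Zfp575, without sample 1, Zfp597, and without either, Zfp703. Some calls also depended on the probe set. Zfp217 gave 0.46 when sets with a suffix were left out. With the mean of a gene's probe sets, Zfp217 gave 0.88 and Zfp597 0.95, both under 2-fold. The count lower was 4 without sample 1 of day 0. It was 1 without sample 1 of day 8 or sample 2 of day 10, and 0 without sample 2 of day 0, sample 2 of day 8 or sample 1 of day 10. The count higher became 5 without sample 1 of day 0 or sample 1 of day 8.

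Between days 30 and 35 and day 56, limma called no Zfp gene higher (0% of all genes) or lower (0.00742% of all genes). At an unadjusted p under 0.05 there were 32 Zfp genes and 1529 of all genes. The count lower became 1 without either sample of day 18 or of day 20, and the gene was then Zfp385a. It also became 1 without sample 2 of day 56, when the gene was Zfp622. Both names were read after the counts were seen.

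The rises and falls were unevenly placed on the array types. On type A, 10 of 54 Zfp genes rose (18.5%, beside 13.4% of the others) and 13 fell (24.1%, beside 22.1%). On type B, 5 of 116 rose (4.31%, beside 14%) and 19 fell (16.4%, beside 19.7%). On type C, 5 of 73 rose (6.85%, beside 18.5%) and 26 fell (35.6%, beside 19.5%). The lower share of rises was thus seen on types B and C and not on type A, and the share of falls was lower than that of the others on type B. These shares are descriptions and their differences were not tested.

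**Figure D5:**
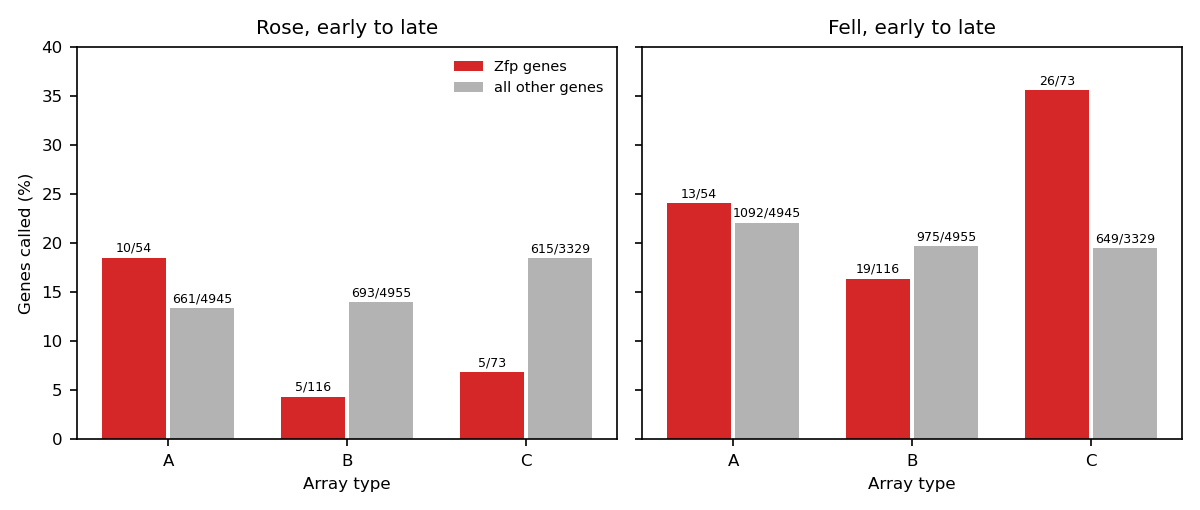
Percent of genes called (vertical axis, starting at 0) as rises (left) and falls (right) from early to late on array types A, B and C, for Zfp genes (red) and all other genes (grey), with counts above the bars. Zfp rises were 18.5% on type A but 4.31% and 6.85% on types B and C, and Zfp falls were 35.6% on type C, 24.1% on type A and 16.4% on type B.

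Brightness differed too. The median of the mean signals was 136.4 for Zfp genes and 165 for the others. Among genes with a mean of 200 or above, 12.5% of 88 Zfp genes rose beside 22.3% of the others, and 23.9% fell beside 23.3%. Between 50 and 200, 4.35% of 115 Zfp genes rose beside 9.81%, and 23.5% fell beside 20.8%. Under 50, 10% of 40 Zfp genes rose beside 7.82%, and 25% fell beside 10.4%.

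Zfp genes lie in clusters along the chromosomes. Chromosome 7 held 56 of the 243, with 3 rises and 6 falls, where 13.8% of the other genes there rose and 17.1% fell. Chromosome 17 held 34, with 2 rises and 9 falls, where 17.2% of the others rose and 16.7% fell. There were 55 pairs of neighbouring Zfp genes. Both genes were called in 5 pairs, a count that was not set against chance, of which 3 fell together: Zfp799 with Zfp870, Zfp551 with Zfp606, and Zfp27 with Zfp383. In the other 2 pairs the neighbours went opposite ways. Zfp935 fell by 1.15 beside Zfp934, which rose by 1.85, and Zfp777 fell by 1.63 beside Zfp956, which rose by 1.87. The longest unbroken run was 9 genes on chromosome 7, from Zfp84 to Zfp568, in which Zfp30, Zfp27 and Zfp383 fell and the other 6 belonged to no class.

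Of the falling genes, 20 had another usable probe set. In 16 all probe sets went down, and in 10 another set also fell by at least 2-fold. Zfp36l2, Zfp395, Zfp651 and Zfp704 each had one that went up. Zfp704 fell by 2.01 on its brightest set and gave 0.71 and 0.78 on the others. Of the members, 3 are long non-coding RNAs (Zfp335os, Zfp783 and Zfp85os) and 1 is a transcribed pseudogene (Zfp862-ps), and all of these belonged to no class.

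The partners of KRAB proteins and the other finger families were counted in the same fit. Of all genes, 14.9% rose and 20.6% fell from early to late, with a median change of -0.24. The lists were not tested against these shares. Of 18 measured KRAB corepressor genes, 3 fell and none was called higher from early to late, with an unadjusted p under 0.05 for 13. Hdac2, a histone deacetylase, fell by 1.55, Rbbp7, a histone-binding subunit, by 1.72, and Dnmt1, the maintenance DNA methyltransferase, by 1.22. The median change of the list was -0.43. Others went up by less than 2-fold, among them Chaf1a by 0.85, Hdac1 by 0.83 and Uhrf1 by 0.45. Trim28 itself had medians of 2278 early, 2189 in the middle and 1647 late, and its change of -0.45 ± 0.15 (SE, adjusted p = 0.0161) was under 2-fold. Among 17 Zscan and Zkscan genes, 3 rose and 2 fell, with a median of 0.54. Among 34 Zbtb genes, 3 rose and 9 fell (median -0.14), and among 14 Klf genes, 2 rose and 6 fell (median -0.71). None of the 7 measured Prdm genes was called, with an unadjusted p under 0.05 for 2.

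Beside the falling Zfp genes, all 6 peritubular and matrix markers, 5 of 10 Sertoli markers and 4 of 9 spermatogonial markers fell from early to late. The Sertoli marker Rhox5 gave 0.68, with a first step of 1.19, and the spermatogonial marker Ddx4 rose by 2.48. Beside the late rises, such as that of Zfp474, 10 of 11 spermatid markers rose. The part of cell make-up in these courses was not tested.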

How the data were processed

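The values deposited by the authors are linear signal intensities of probe sets, and per the labels' protocols each array was scaled to a target signal of 125. With 2% trimmed at each end, array means were 124.9 to 125.0. The program behind the signals is not given in the sources used here, and detection calls were not used. Of 36899 probe sets, 29131 name 1 gene. Array controls aside, 26941 sets, whether or not they name 1 gene, reached a signal of 50 on 2 or more arrays of their type. The brightest kept set that names 1 gene stood for each gene, and 482 sets named a Zfp gene, 18 of them with other genes. Types A, B and C had separate fits in limma 3.58.1 (R 4.3.3): lmFit on 11 day means of log2(signal + 16), then eBayes with a variance trend. Two-sided p-values were adjusted by Benjamini-Hochberg over 13472 genes per comparison. Stage changes compare averages of day means, and the number of arrays limits their precision. A gene stood clear from the first middle or late day from which on every sample, that day's included, lay beyond all early samples.

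Genes with full values were the 8 largest non-overlapping early to late changes and the 4 largest of each other step, in each direction, with genes of known role. The members and lists were chosen with earlier results of these data known. Fits were checked on simulated data. Alternatives covered the pseudocount, signal filter, normalization, probe set choice, stage limits, replicate block and single samples left out. Chromosomes, neighbours and promoters come from RefSeq tables (GRCm38.p6), where all 243 genes matched by gene ID. Protein sequences were not used here.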

Additional observations from a re-analysis of the deposited data

How the results depend on the processing

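Of 52 values for named genes, 33 kept their call and direction under all 33 alternatives, and none reversed. With a pseudocount of 64, 5 Zfp genes were higher and 8 lower from early to middle, 2 lower from middle to late, 13 higher and 26 lower from early to late (13 rises and 26 falls), 1 lower from day 0 to days 8 and 10, 1 lower at day 56, and 1 called in one step only. With a pseudocount of 1, 23 were lower from early to middle and 32 from middle to late, and 1 had a trough. Quantile normalization left 7 lower from middle to late and 2 called in one step only. Scaling to the median left 9 lower from middle to late and 34 lower from early to late (34 falls). Narrower stages gave 29 lower in the first step and 9 in the second, 1 peak and 1 trough. Without days 0 and 20, chosen after seeing the data, 5 were higher and 8 lower in the first step, 34 lower in the second, 1 lower at day 56 and 8 called in one step only. The cause of these differences was not tested.

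Leaving out 1 sample at a time gave 111 to 137 genes in the F-test, 8 to 10 higher and 13 to 19 lower from early to middle, 6 to 10 and 12 to 20 from middle to late, and 18 to 21 and 54 to 61 from early to late (18 to 21 rises, 54 to 61 falls). The counts were 3 to 5 and 0 to 4 from day 0 to days 8 and 10, 0 higher and 0 to 1 lower at day 56, 0 peaks, 0 to 1 troughs and 3 to 8 genes called in one step only. Deviations of same-numbered samples on different days correlated from -0.21 to 0.55 on type A, -0.01 to 0.39 on type B and -0.06 to 0.29 on type C. Their medians were 0.10, 0.13 and 0.06, and 28, 34 and 23 of 55 pairs of days exceeded 0.1. The labels do not say whether same-numbered samples belong together, and the main fits had no replicate block. With the replicate block, 129 genes passed the F-test, 20 rose, 58 fell and 1, Zfp385a, was lower at day 56. Dim genes are limited by signal over background: 40 of the 243 had a mean under 50. The protein features of the members were not run.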
